A study of Homo sapiens with 12 samples.

Results

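The genes described here are 8 genes of cellular iron handling, taken by name out of the 26481 genes with a complete row of counts. They are TFRC, TFR2 and SLC11A2 for uptake, SLC25A37 for entry into the mitochondrion, FTH1 and FTL for storage, SLC40A1 for export and HMOX1 for the release of iron from heme. All 8 passed the filter on low counts, together with 14164 genes in all, so no gene of the list is missing from the tests.

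RNA was sequenced from HEL cells, an erythroleukemia line used as a model of human acute myeloid leukemia (AML), that carried lentiviral DNA barcodes. Untreated cells (NT, n = 2) were kept in medium with 0.1 µM DMSO. Relapses are cultures that had regrown for about 30 days from the live cells left after a drug exposure of 72 to 74 h. Cells of the group Doxo (n = 3) had received the anthracycline doxorubicin at 1.8 µM. The group Doxo+Cyta (n = 3) had also received cytarabine, a nucleoside analogue, at 6 µM. The group Doxo+Cyta+DAC (n = 4, here the triple treatment) had in addition received decitabine, which depletes DNA methyltransferases, at 0.1 µM. Every group stems from 1 cell line, and each relapse is a population of clones. Among these relapse groups, the authors found the fewest barcodes and the lowest barcode diversity after the triple treatment. Relapses after cytarabine or decitabine alone were not analysed here. In such bulk RNA, fewer cells of a kind and less RNA per cell cannot be told apart. Libraries held 12763582 to 19106235 counted fragments. Of 15 erythroid and megakaryocytic markers, 14 were tested and PF4 was at or near 0 in every group, while the macrophage genes CD163, MARCO, C1QB and C1QC were at 0 in all 12 libraries. Doxo replicate 4 and Doxo+Cyta replicate 20 lay farther from the other libraries of their group than any other library, with a chi-square per degree of freedom of 27.3 to 48.5 against 3.1 to 16.4 for all other pairs within groups.

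Cells take up iron mainly as transferrin, which binds the transferrin receptor and is carried into endosomes, where the iron leaves through the transporter DMT1. What the cell does not use in heme and iron-sulfur clusters is stored in ferritin or leaves through ferroportin. Much of this system is set after transcription: iron regulatory proteins bind RNA hairpins called iron-responsive elements, which block translation when they lie in a 5′ UTR and stabilise the RNA when they lie in a 3′ UTR. Erythroid cells have an unusually large demand for iron because they make hemoglobin.

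The hairpins are shown because they divide the 8 transcripts into those with and those without a hairpin of the form searched here. The canonical transcripts of GENCODE 44 on GRCh38 were searched on the sense strand for a loop CAGTGN closed by 5 base pairs (G with T allowed), with an unpaired C before them and at least 4 of 6 pairs below. Of 19675 protein-coding genes, 28 (0.142%) held such a hairpin in a UTR, 10 of them in the 5′ UTR and 18 in the 3′ UTR. Among the 8 genes, 4 did, with 7 hairpins in all, and each lay inside an exon of the deposited annotation. Capitals mark the 6 bases of the loop.
TFRC hairpin 1, chr3:196050979-196051007, minus strand, 3′ UTR in exon 19 of 19: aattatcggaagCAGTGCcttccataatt
TFRC hairpin 2, chr3:196050575-196050603, minus strand, 3′ UTR: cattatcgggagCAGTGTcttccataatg
TFRC hairpin 3, chr3:196050510-196050538, minus strand, 3′ UTR: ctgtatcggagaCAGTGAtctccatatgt
TFRC hairpin 4, chr3:196050463-196050491, minus strand, 3′ UTR: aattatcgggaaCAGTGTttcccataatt
FTH1, chr11:61967574-61967602, minus strand, 5′ UTR in exon 1 of 4: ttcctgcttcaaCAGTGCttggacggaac
FTL, chr19:48965335-48965363, plus strand, 5′ UTR in exon 1 of 4: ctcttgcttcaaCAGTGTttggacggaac
SLC40A1, chr2:189580661-189580689, minus strand, 5′ UTR in exon 1 of 8: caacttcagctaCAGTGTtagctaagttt

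The 4 hairpins of TFRC lay between bases 3289 and 3805 of a transcript of 5012 bases, beyond the coding part. Those of FTH1, FTL and SLC40A1 began at bases 33, 27 and 98, before the start codon. No hairpin of this form was found in the canonical transcripts of TFR2, SLC11A2, SLC25A37 or HMOX1. This says only that these letters are not in those UTRs. Iron-responsive elements of a looser form, or in other transcripts of these genes, were not searched.

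**Figure D1:**
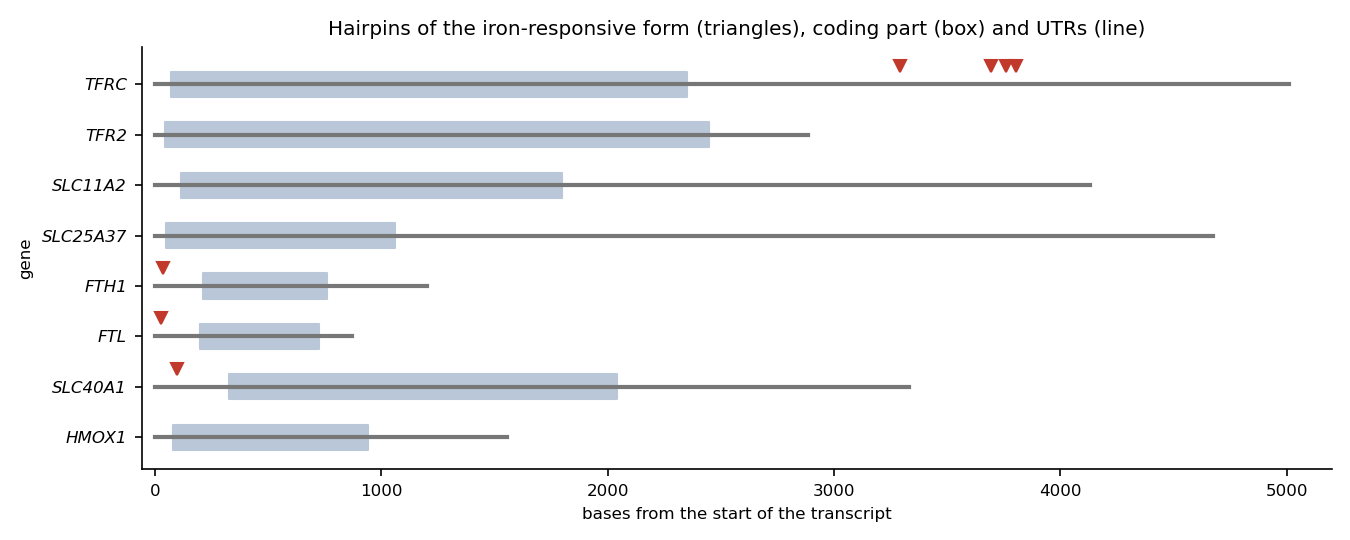
Canonical transcripts of the 8 genes drawn to scale in bases from their start, with the coding part as a box, the UTRs as a line and each hairpin as a triangle. TFRC carries 4 triangles behind its coding part, FTH1, FTL and SLC40A1 carry 1 each ahead of theirs, and the other transcripts carry none.

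Levels of different genes were compared per kilobase of exon, in CPM, the count of a gene scaled for library size (with TMM factors), divided by the deposited exon length. In NT the order was FTL at 1868 ± 135 (SD, n = 2), FTH1 at 770 ± 56.8, TFRC at 225 ± 23.7, SLC25A37 at 211 ± 0.83, TFR2 at 88.4 ± 0.544, SLC40A1 at 42.1 ± 3.61, SLC11A2 at 13.3 ± 0.391 and HMOX1 at 7.11 ± 0.0989 CPM per kilobase. Both ferritin chains thus stood at the top, and FTL ranked 28th and FTH1 81st per kilobase among the 14164 genes. The NT ranges of TFRC and SLC25A37 overlapped, and no other neighbours in the order did. In Doxo+Cyta+DAC the order was the same, but SLC25A37, at 84.0 ± 17.2 (n = 4), now lay below TFRC, at 184 ± 33.8, without overlap. In Doxo, SLC25A37 at 302 ± 15.2 (n = 3) stood above TFRC at 168 ± 2.72, and HMOX1 at 20.0 ± 2.53 above SLC11A2 at 13.6 ± 1.02. In Doxo+Cyta, SLC25A37 at 305 ± 51.5 stood above TFRC at 202 ± 61.7 with no overlap, whereas HMOX1 and SLC11A2 overlapped. The deposited exon length of SLC25A37 is 1865 bases against 4672 for its GENCODE transcript, so its level per kilobase depends on the annotation. That length cancels in its changes between groups. Whether fragments outside the deposited exons change alike was not tested. Reads were aligned without splicing, so fragments that cross exon junctions may be lost. How far this alters the order, ranks and ratios between genes was not tested.

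The question of the 6 comparisons is how relapses that arose with and without decitabine differ from untreated cells and from each other. The 8 genes did not move as a block. Relative to NT, FTL and HMOX1 rose after doxorubicin, HMOX1 also rose after doxorubicin with cytarabine, and TFR2, SLC11A2 and SLC25A37 fell after the triple treatment. TFRC, FTH1 and SLC40A1 did not pass the test in any of the 6 comparisons. A gene counted as called where the two-sided quasi-likelihood test of edgeR gave a Benjamini-Hochberg adjusted p under 0.05 over the 14164 genes.

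In Doxo relative to NT, 2 of the 8 genes were called higher and 0 lower, where 6.06% of all genes were called higher and 4.63% lower. In Doxo+Cyta relative to NT, 1 was called higher, where 0.911% of all genes were called higher and 0.551% lower. In Doxo+Cyta+DAC relative to NT, 3 were called lower and 0 higher, against 23.7% and 24.9% of all genes. Relative to Doxo, Doxo+Cyta+DAC had 5 of 8 lower and 0 higher, against 30.4% and 29.1% of all genes. Relative to Doxo+Cyta it again had 5 lower and 0 higher, against 30.5% and 29.8% of all genes. In Doxo+Cyta relative to Doxo, 1 was lower, where 2.32% of all genes were lower and 1.07% higher. Thus each comparison with the triple treatment moved a large part of the transcriptome, and 3 of 8 lower relative to NT is not far from that background. The median log2 fold change of the 8 genes was -0.21 in Doxo+Cyta+DAC relative to NT, -0.68 relative to Doxo and -0.63 relative to Doxo+Cyta, while the median of all tested genes lay at 0.02, -0.01 and 0.00. Comparisons with the same reference share its libraries, so they are not independent of each other.

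**Figure D2:**
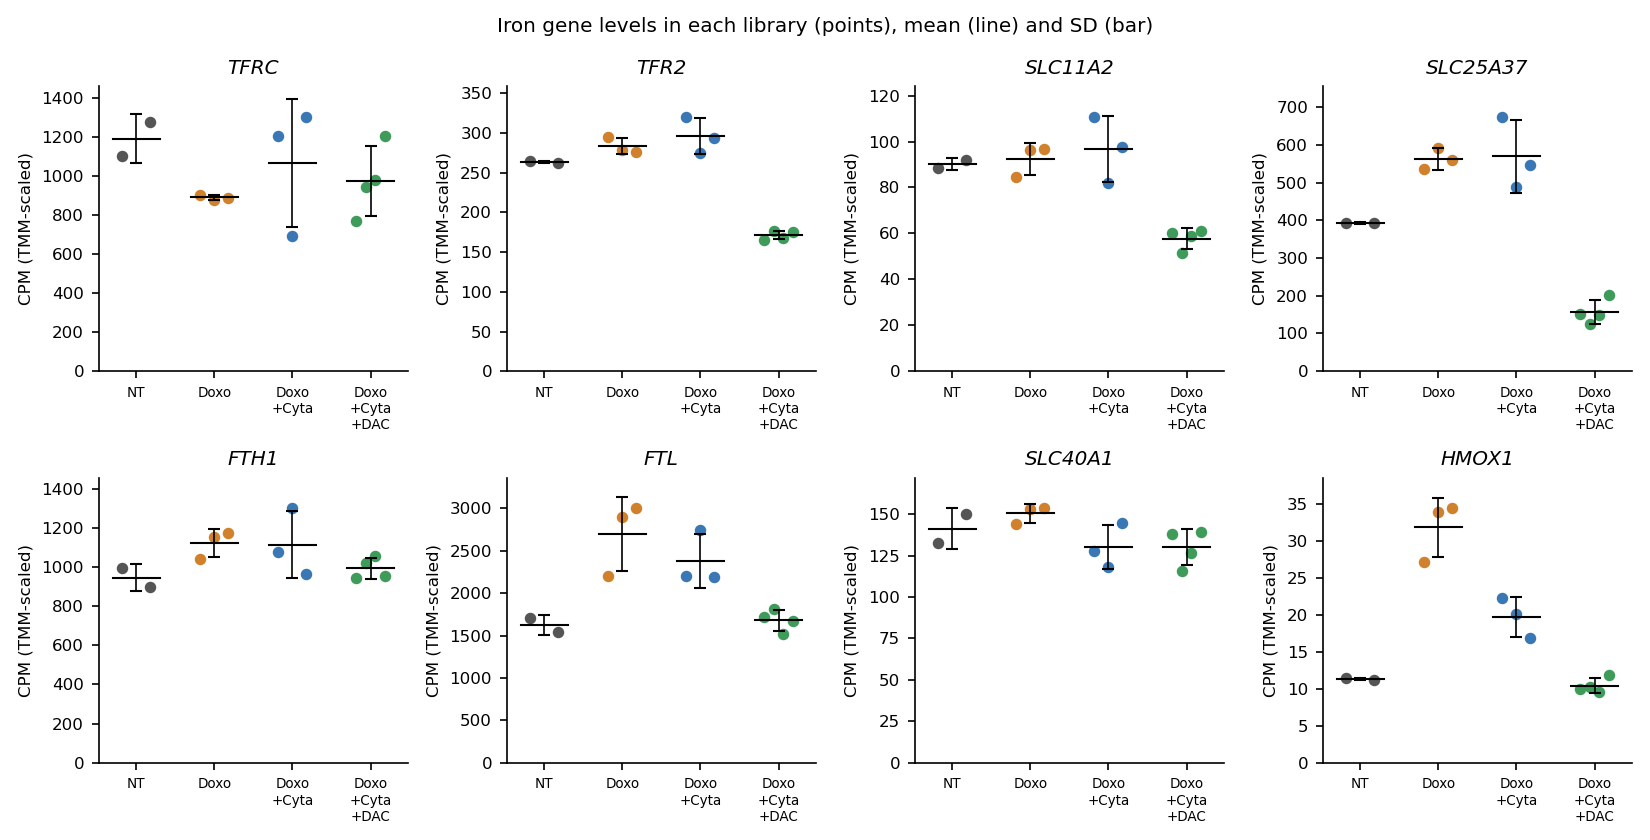
Level of each of the 8 genes in CPM (TMM-scaled, axis from 0) in the 12 libraries, by group, with the group mean as a line and the SD as a bar. TFR2, SLC11A2 and SLC25A37 are lowest in all 4 Doxo+Cyta+DAC libraries, while FTL and HMOX1 have their highest mean in Doxo and overlap NT in Doxo+Cyta+DAC.

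SLC25A37 (chromosome 8, 23528850 to 23572550, plus strand, GRCh38) encodes mitoferrin-1, the importer of iron into the mitochondria of erythroid cells, and it showed the largest fall of the 8 genes. Its level was 391.9 and 394.1 CPM in NT, 536, 592 and 560 CPM in Doxo, 675, 487 and 546 CPM in Doxo+Cyta, and 151, 125, 150 and 201 CPM in Doxo+Cyta+DAC. All 4 triple-treatment libraries lay below every other library, and the 6 libraries of the other relapses all lay above both NT libraries. The log2 fold change in Doxo+Cyta+DAC was -1.33 ± 0.16 (SE) relative to NT (2.51-fold lower, edgeR adjusted p = 2.26e-05), -1.84 ± 0.14 relative to Doxo (3.59-fold lower, adjusted p = 4.30e-07) and -1.86 ± 0.14 relative to Doxo+Cyta (3.63-fold lower, adjusted p = 2.58e-07). These calls held under all 21 alternatives, with the value relative to NT between -1.47 and -1.23. The higher levels after chemotherapy alone did not pass the test, at 0.52 ± 0.17 in Doxo (edgeR adjusted p = 0.0699) and 0.53 ± 0.17 after both drugs (adjusted p = 0.119). In Doxo relative to NT the gene was called in 5 alternatives, among them the fit of only those groups (0.52, adjusted p = 0.0143) and the fits without Doxo+Cyta replicate 20 (0.49, edgeR adjusted p = 0.0467) and without Doxo+Cyta+DAC replicate 31 (0.52, adjusted p = 0.0492) or 33 (0.52, adjusted p = 0.0379).

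TFR2 (chromosome 7, 100620416 to 100641550, minus strand) encodes transferrin receptor 2, which binds iron-loaded transferrin and is expressed in liver and in erythroid cells. It stood at 265 and 262 CPM in NT, 295, 279 and 276 CPM in Doxo, 321, 275 and 293 CPM in Doxo+Cyta, and 166, 176, 168 and 175 CPM in Doxo+Cyta+DAC. The triple-treatment libraries spanned only 166 to 176 CPM and did not overlap any other group. TFR2 fell by 0.62 ± 0.09 on the log2 scale relative to NT (1.54-fold lower, edgeR adjusted p = 0.000116). It was lower by log2 fold changes of -0.73 ± 0.08 relative to Doxo (adjusted p = 6.61e-06) and -0.79 ± 0.08 relative to Doxo+Cyta (adjusted p = 2.56e-06). Relative to NT, Doxo differed by 0.10 with a 95% interval of -0.11 to 0.32 and Doxo+Cyta by 0.17 with -0.04 to 0.38, and neither passed the test.

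SLC11A2 (chromosome 12, 50979783 to 51028275, minus strand) encodes DMT1, the transporter that moves ferrous iron out of the endosome. Its level was 88.4 and 92.1 CPM in NT, 84.5, 96.4 and 96.7 CPM in Doxo, 111, 82.1 and 97.7 CPM in Doxo+Cyta, and 60.0, 51.3, 58.7 and 61.0 CPM in Doxo+Cyta+DAC. Again every triple-treatment library lay below every other library, while the ranges of the other 3 groups overlapped. The fall was 1.56-fold relative to NT (log2 -0.64 ± 0.13, edgeR adjusted p = 0.00095), 1.6-fold relative to Doxo (-0.68 ± 0.11, adjusted p = 0.000164) and 1.68-fold relative to Doxo+Cyta (-0.75 ± 0.11, adjusted p = 6.76e-05). The calls of TFR2 and SLC11A2 against the triple treatment held under all 21 alternatives.

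TFRC (chromosome 3, 196049284 to 196082161, minus strand) encodes transferrin receptor 1, the main route of iron into dividing cells, and carries the 4 hairpins in its 3′ UTR printed above. It stood at 1101 and 1279 CPM in NT, 905, 876 and 889 CPM in Doxo, 1204, 695 and 1304 CPM in Doxo+Cyta, and 771, 942, 977 and 1206 CPM in Doxo+Cyta+DAC. Doxo lay below both NT libraries, whereas Doxo+Cyta replicate 20 stood apart from both other libraries of its group. No comparison passed the test. The largest was -0.42 ± 0.22 in Doxo relative to NT (95% interval -0.89 to 0.05, edgeR adjusted p = 0.224). Without Doxo+Cyta replicate 20, TFRC was called lower in Doxo relative to NT (-0.45, edgeR adjusted p = 0.0425) and in the triple treatment relative to Doxo+Cyta (-0.37, adjusted p = 0.0267), and it was also called in Doxo relative to NT when only those groups were fitted (-0.42, adjusted p = 0.0299).

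The ratio of the receptors within a library does not depend on scaling between libraries, and this pair was chosen after the values were seen. Per base of exon, TFRC was 2.34 and 2.75 times TFR2 in NT, 1.73, 1.77 and 1.81 times in Doxo, 2.11, 1.42 and 2.50 times in Doxo+Cyta, and 2.62, 3.01, 3.27 and 3.88 times in Doxo+Cyta+DAC. All 3 Doxo libraries had the ratio below both NT libraries, while the range of the triple treatment overlapped that of NT and lay above those of the other relapses.

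FTL (chromosome 19, 48965309 to 48966879, plus strand) encodes the light chain of ferritin, and FTH1 (chromosome 11, 61964285 to 61967660, minus strand) the heavy chain, which oxidises iron as it enters the shell. FTL stood at 1710 and 1544 CPM in NT, 2204, 2897 and 3005 CPM in Doxo, 2207, 2748 and 2187 CPM in Doxo+Cyta, and 1717, 1810, 1523 and 1668 CPM in Doxo+Cyta+DAC. All 6 libraries of the relapses without decitabine lay above all 6 libraries of NT and Doxo+Cyta+DAC, and NT and Doxo+Cyta+DAC overlapped. FTL rose by 0.73 ± 0.15 in Doxo relative to NT (1.66-fold, edgeR adjusted p = 0.00866). In Doxo+Cyta the difference of 0.55 ± 0.15 did not pass the test (adjusted p = 0.0725). Relative to the triple treatment, FTL was 1.61-fold higher in Doxo (edgeR adjusted p = 0.000228) and 1.42-fold higher in Doxo+Cyta (adjusted p = 0.00229). The call in Doxo relative to NT was lost without NT replicate 1 (0.80, edgeR adjusted p = 0.0841) and without NT replicate 2 (0.66, adjusted p = 0.118), where the spread of the single NT library is taken from the other groups. In Doxo+Cyta relative to NT, FTL was called without Doxo replicate 4 (0.53, edgeR adjusted p = 0.0297) and with DESeq2 (0.54, adjusted p = 0.0217).

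FTH1 moved less. Its levels were 996 and 897 CPM in NT, 1044, 1153 and 1175 CPM in Doxo, 1076, 1302 and 967 CPM in Doxo+Cyta, and 943, 1022, 1054 and 954 CPM in Doxo+Cyta+DAC. Doxo lay above NT without overlap, but the difference of 0.25 ± 0.12 did not pass the test (95% interval -0.02 to 0.52, edgeR adjusted p = 0.210). In the comparison of the triple treatment with Doxo+Cyta, -0.17 ± 0.10 (edgeR adjusted p = 0.181), FTH1 was called lower without Doxo+Cyta replicate 22 (-0.27, adjusted p = 0.0484) and with upper-quartile scaling (-0.26, adjusted p = 0.0456). FTH1 shares 179 of its 1229 exon bases with BEST1, and fragments there were not counted. The 3 ferritin pseudogene rows of the table together held 3 to 10 counts per library, and adding them to FTH1 and FTL changed no call.

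The ratio of the chains within each library likewise needs no scaling. Per base, FTL was 2.42 and 2.43 times FTH1 in NT, 2.98, 3.55 and 3.61 times in Doxo, 2.90, 2.98 and 3.19 times in Doxo+Cyta, and 2.57, 2.50, 2.04 and 2.47 times in Doxo+Cyta+DAC. Every library of Doxo and Doxo+Cyta lay above every library of the other groups. TFRC stood at 0.257 and 0.331 times FTH1 in NT and at 0.201, 0.176 and 0.176 times in Doxo. In Doxo+Cyta that ratio was 0.260, 0.124 and 0.313, and in Doxo+Cyta+DAC 0.190, 0.214, 0.215 and 0.293, so only Doxo stood clear of NT. These ratios are a description without a test.

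**Figure D3:**
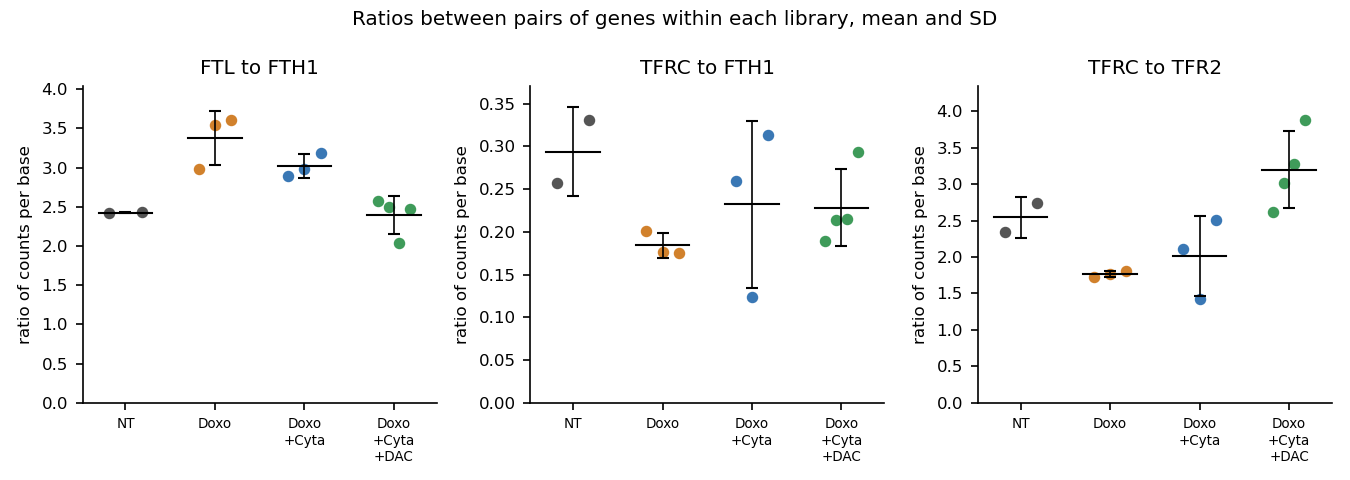
Ratios of counts per base of exon between pairs of genes within each of the 12 libraries (axes from 0), with group mean and SD. FTL to FTH1 runs from 2.90 to 3.61 in the relapses without decitabine and from 2.04 to 2.57 in the other libraries. TFRC to FTH1 spreads most widely in Doxo+Cyta, and TFRC to TFR2 spreads widely in both Doxo+Cyta and Doxo+Cyta+DAC.

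SLC40A1 (chromosome 2, 189560590 to 189580811, minus strand) encodes ferroportin, the exporter of iron from cells. Its highest and lowest libraries were closer, as a ratio, than those of any other of the 8 genes, with 133 and 150 CPM in NT, 144, 153 and 154 CPM in Doxo, 128, 118 and 144 CPM in Doxo+Cyta, and 138, 116, 127 and 139 CPM in Doxo+Cyta+DAC. No comparison passed the test, and the largest differences were -0.21 ± 0.10 in Doxo+Cyta+DAC relative to Doxo (95% interval -0.43 to 0.01, edgeR adjusted p = 0.0879) and -0.21 ± 0.11 in Doxo+Cyta relative to Doxo (-0.44 to 0.02, adjusted p = 0.310). The former was called without Doxo+Cyta replicate 20 (-0.21, edgeR adjusted p = 0.0498), with upper-quartile scaling (-0.25, adjusted p = 0.0461) and with at least 10 counts in every sample (-0.24, adjusted p = 0.0492). Relative to NT the difference of the triple treatment was -0.12 with an interval of -0.37 to 0.13.

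HMOX1 (chromosome 22, 35381067 to 35394214, plus strand) encodes heme oxygenase 1, which breaks heme into biliverdin, carbon monoxide and iron and is induced by oxidative stress. It had the largest rise of the 8 genes. Its level was 11.4 and 11.2 CPM in NT, 27.2, 33.8 and 34.4 CPM in Doxo, 22.2, 20.1 and 16.9 CPM in Doxo+Cyta, and 9.92, 10.2, 9.60 and 11.9 CPM in Doxo+Cyta+DAC, from 148 to 581 counts per library. The ranges of Doxo and Doxo+Cyta did not overlap each other or any other group, and NT and the triple treatment overlapped. HMOX1 rose 2.81-fold in Doxo relative to NT (log2 1.49 ± 0.17, edgeR adjusted p = 0.000407), and this call held under all 21 alternatives, with values from 1.41 to 1.56. In Doxo+Cyta it was 1.74-fold higher than in NT (0.80 ± 0.17, edgeR adjusted p = 0.0394) and 1.61-fold lower than in Doxo (-0.69 ± 0.15, adjusted p = 0.0192). The triple treatment was 3.06-fold lower than Doxo (-1.62 ± 0.14, edgeR adjusted p = 7.79e-07) and 1.90-fold lower than Doxo+Cyta (-0.93 ± 0.14, adjusted p = 6.12e-05).

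Both calls of HMOX1 that involve Doxo+Cyta without decitabine were close to the threshold. The rise over NT was lost in 11 of 21 alternatives, with an unchanged direction (0.69 to 0.89) and adjusted p-values up to 0.435 in edgeR. These were the fit of only the groups compared (adjusted p = 0.104) and the fits without NT replicate 1 (0.252) or 2 (0.435), Doxo replicate 5 (0.0628) or 6 (0.0602), Doxo+Cyta replicate 19 (0.0903), 20 (0.0510) or 22 (0.0518), and Doxo+Cyta+DAC replicate 30 (0.0554), 32 (0.0524) or 33 (0.0508). The difference from Doxo was lost without Doxo replicate 5 (edgeR adjusted p = 0.108), Doxo replicate 6 (0.0992) or Doxo+Cyta replicate 22 (0.0697) and with only the groups compared (0.109).

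**Figure D4:**
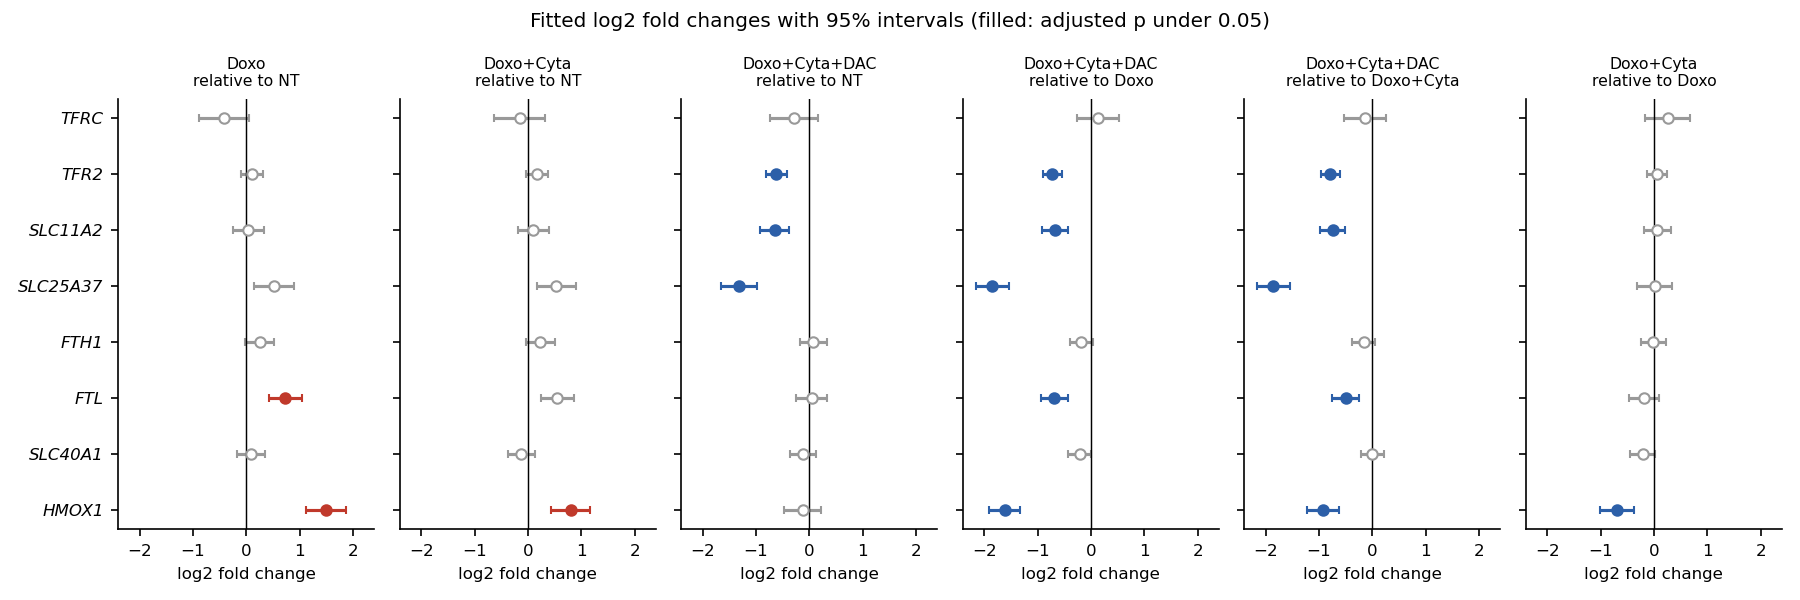
Fitted log2 fold change of each of the 8 genes (x axis, first group relative to second) in the 6 comparisons, with 95% intervals, filled in red or blue where the adjusted p was under 0.05. Filled points are to the right of 0 only for FTL and HMOX1, in comparisons of chemotherapy relapses with NT, and to the left in all 3 comparisons of the triple treatment for TFR2, SLC11A2 and SLC25A37.

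The genes whose profile over the 12 libraries lay closest to each called gene were found by the root-mean-square difference of centred log2 CPM over 10519 genes with a mean of at least 5 CPM. SLC25A37, whose own profile had a root mean square of 0.857, was closest to MANBA (0.119), TP53INP2 (0.135) and FGF11 (0.136). HMOX1, at 0.668, was closest to SGK1 (0.157), JMJD6 (0.194) and DUSP1 (0.200). Like HMOX1, these 3 were highest in Doxo, with mean levels of 8.66, 129 and 54.2 CPM against 3.56, 63.5 and 20.8 CPM in NT. For FTL, at 0.338, the closest were SSR2 (0.0797), RGS10 (0.0833) and ZNF622 (0.110). TFR2, at 0.349, was closest to USP48 (0.0865), PIAS3 (0.0874) and MOAP1 (0.0876), and SLC11A2, at 0.348, to RASA3 (0.0753), RNF214 (0.0812) and STAT2 (0.0858). These are descriptions over libraries that share their groups, and carry no test.

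The setting of the 8 genes is given by 78 other genes of iron and heme handling in 6 lists, of which 69 were tested. In Doxo+Cyta+DAC relative to NT, 26 were called higher and 12 lower (37.7% and 17.4%, against 24.9% and 23.7% of all genes tested), and the median log2 fold change was 0.22 against 0.02 for all genes. Relative to Doxo, 29 were higher and 18 lower (42.0% and 26.1%, against 29.1% and 30.4% of all genes), with a median of 0.30. Relative to Doxo+Cyta, 29 were higher and 19 lower (42.0% and 27.5%, against 29.8% and 30.5%), with a median of 0.36. In Doxo relative to NT 7 were higher and 2 lower (10.1% and 2.90%, against 6.06% and 4.63% of all genes). In Doxo+Cyta relative to NT 2 were higher and 1 lower (2.90% and 1.45%, against 0.911% and 0.551%), and in Doxo+Cyta relative to Doxo 4 were lower (5.80%, against 2.32%). The 9 calls in Doxo relative to NT depended on single libraries: they numbered 1 without NT replicate 1, 0 without NT replicate 2, 19 without Doxo replicate 4, 5 without Doxo replicate 5 or 6, and 18 without Doxo+Cyta replicate 20.

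Of 11 tested genes of the transferrin cycle and iron entry, 3 were higher and 1 lower in Doxo+Cyta+DAC relative to NT (27.3% and 9.09%, against 24.9% and 23.7% of all genes), so the share called higher was near that of all genes. The 3 were STEAP3, the endosomal reductase that readies iron for DMT1, MCOLN1, a cation channel of late endosomes and lysosomes, and SLC39A14, the transporter ZIP14, which takes up zinc and iron that is not bound to transferrin. STEAP3 stood at 19.2 and 22.2 CPM in NT and at 74.9, 54.7, 73.2 and 65.7 CPM in Doxo+Cyta+DAC, with all triple-treatment libraries above all others. Its log2 fold change was 1.70 ± 0.32 relative to NT (edgeR adjusted p = 0.000779), 1.92 ± 0.28 relative to Doxo and 2.16 ± 0.29 relative to Doxo+Cyta. SLC39A14 rose 2.82-fold relative to NT (edgeR adjusted p = 9.65e-06), and MCOLN1 3.71-fold relative to Doxo (adjusted p = 4.51e-06). Thus within the same step of endosomal iron release STEAP3 was higher and SLC11A2 lower in the triple treatment. CYBRD1, a ferric reductase of the plasma membrane, rose in Doxo relative to NT by 0.70 ± 0.21 (edgeR adjusted p = 0.0470).

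Among 9 tested genes of iron sensing and ferritin turnover, 2 were higher and 2 lower in the triple treatment relative to NT, 22.2% each way and near the 24.9% and 23.7% of all genes. FBXL5, the iron-sensing subunit of the ligase that removes iron regulatory protein 2, fell 2.13-fold relative to NT (edgeR adjusted p = 6.82e-05), from 37.6 and 34.3 CPM to 17.7, 15.8, 16.8 and 17.03 CPM. NCOA4, the receptor that delivers ferritin to autophagy, was named after its values were seen. It stood at 273 and 277 CPM in NT, 299, 512 and 475 CPM in Doxo, 442, 280 and 445 CPM in Doxo+Cyta, and 147, 158, 159 and 180 CPM in Doxo+Cyta+DAC. It was 1.71-fold lower in the triple treatment than in NT (edgeR adjusted p = 0.00577) and 2.67-fold lower than in Doxo (adjusted p = 1.75e-05). The low Doxo and Doxo+Cyta values are those of Doxo replicate 4 and Doxo+Cyta replicate 20.

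Of 20 genes of mitochondrial iron and iron-sulfur clusters, 9 were higher and 4 lower in the triple treatment relative to NT (45.0% and 20.0%, against 24.9% and 23.7% of all genes), and 11 higher and 3 lower relative to Doxo (55.0% and 15.0%, against 29.1% and 30.4%). HSPA9, the mitochondrial chaperone mortalin, which also acts on iron-sulfur clusters, rose from 312 and 334 CPM in NT to 764, 841, 807 and 762 CPM. ABCB8, an ATP-binding cassette protein of mitochondria, was 2.60-fold lower in Doxo than in NT (edgeR adjusted p = 0.00328) and 3.56-fold higher in the triple treatment than in Doxo (adjusted p = 4.40e-06). In Doxo relative to NT, LYRM4, a partner of the cysteine desulfurase, also fell (1.90-fold, edgeR adjusted p = 0.0123), while the scaffold ISCU rose 1.42-fold (adjusted p = 0.0392).

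Of 9 tested genes of heme transport and breakdown, 3 were higher in Doxo than in NT (33.3%, against 6.06% of all genes), and in the triple treatment 2 were higher and 4 lower than in Doxo (22.2% and 44.4%, against 29.1% and 30.4%). BLVRB, a reductase of flavins and of some forms of biliverdin, rose 1.72-fold in Doxo relative to NT (edgeR adjusted p = 0.0323). BLVRA, which reduces the biliverdin that heme oxygenase makes, was not called there (log2 fold change -0.06, edgeR adjusted p = 0.822). BLVRB stood at 199 and 180 CPM in NT, 274, 348 and 357 CPM in Doxo, and 74.8, 81.9, 79.3 and 134 CPM in Doxo+Cyta+DAC, where BLVRB was 3.53-fold lower than in Doxo (edgeR adjusted p = 1.94e-06). LRP1, a receptor that takes up heme bound to hemopexin, was 2.46-fold higher in Doxo (edgeR adjusted p = 0.0094) and 2.26-fold higher in Doxo+Cyta than in NT (adjusted p = 0.0461), and 2.78-fold lower in the triple treatment than in NT (adjusted p = 0.000443). SLC48A1, a heme transporter of endosomes and lysosomes, fell 2.70-fold from NT (edgeR adjusted p = 1.36e-05). ABCG2, an exporter of heme and of many drugs, held 2 and 3 counts in the NT libraries, against 16 to 33 in Doxo, 17 to 30 in Doxo+Cyta and 25 to 70 in Doxo+Cyta+DAC. It was called higher than NT in all 3 relapse groups (edgeR adjusted p = 0.00671, 0.0317 and 7.16e-05), at counts too low for a fold to be given.

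Of 6 tested genes of export and systemic control, 2 were higher and 1 lower in the triple treatment relative to NT (33.3% and 16.7%, against 24.9% and 23.7% of all genes). HEPH, the ferroxidase hephaestin that works beside ferroportin, was 1.27-fold lower in the triple treatment than in NT (edgeR adjusted p = 0.0244). SMAD6 was 2.02-fold higher (edgeR adjusted p = 0.00324) and SMAD7 1.62-fold higher (adjusted p = 0.0280), both inhibitors of BMP signalling, the pathway that drives hepcidin in liver. The SMAD7 libraries of the triple treatment overlapped those of NT.

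HMOX1 is a classic target of NRF2 (NFE2L2) and of the repressor BACH1, so 14 genes of that system were examined beside it. The list mixes regulators, among them NFE2L2, KEAP1 and BACH1, with target genes, so its counts of higher and lower genes have no single direction. In Doxo relative to NT, 2 rose and 0 fell (14.3% and 0.0%, against 6.06% and 4.63% of all genes). They were NFE2L2, by 0.70 ± 0.18 (edgeR adjusted p = 0.0278), and MAFF, a small MAF partner, by 1.24 ± 0.20 (adjusted p = 0.00309). No other gene of the list was called there. BACH1, singled out after its values were seen, averaged 126 CPM in NT, 181 CPM in Doxo, 118 CPM in Doxo+Cyta and 97.8 CPM in Doxo+Cyta+DAC. NFE2L2 averaged 47.5 CPM in NT, 77.3 CPM in Doxo, 55.9 CPM in Doxo+Cyta and 120 CPM in Doxo+Cyta+DAC. Unlike HMOX1, it was thus highest in the triple treatment, with all libraries of that group above all others. MAFF had the order of HMOX1, with 33.3 and 32.0 CPM in NT, 81.1, 77.6 and 72.8 CPM in Doxo, 39.3, 48.6 and 38.2 CPM in Doxo+Cyta, and 19.5, 29.2, 34.8 and 25.8 CPM in Doxo+Cyta+DAC. In the triple treatment, where HMOX1 overlapped NT, 8 of 14 genes were higher and 1 lower than in NT (57.1% and 7.14%, against 24.9% and 23.7% of all genes), and 9 were higher and 3 lower than in Doxo (64.3% and 21.4%, against 29.1% and 30.4%). SLC7A11, the cystine importer, stood at 7.48, 7.94 and 7.94 CPM in Doxo+Cyta and at 19.2, 29.6, 26.6 and 36.7 CPM in Doxo+Cyta+DAC, a rise of 3.59-fold (edgeR adjusted p = 4.67e-06). TXNRD1, thioredoxin reductase 1, was 1.39-fold lower in Doxo+Cyta than in Doxo (edgeR adjusted p = 0.0134), as were SLC7A11 (1.87-fold, adjusted p = 0.0352) and MAFF (1.84-fold, adjusted p = 0.0134). HSPA9 was 1.33-fold lower there too (adjusted p = 0.0461), and GCLM, a subunit of the enzyme of glutathione synthesis, was 1.64-fold lower in Doxo+Cyta than in NT (adjusted p = 0.0276).

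**Figure D5:**
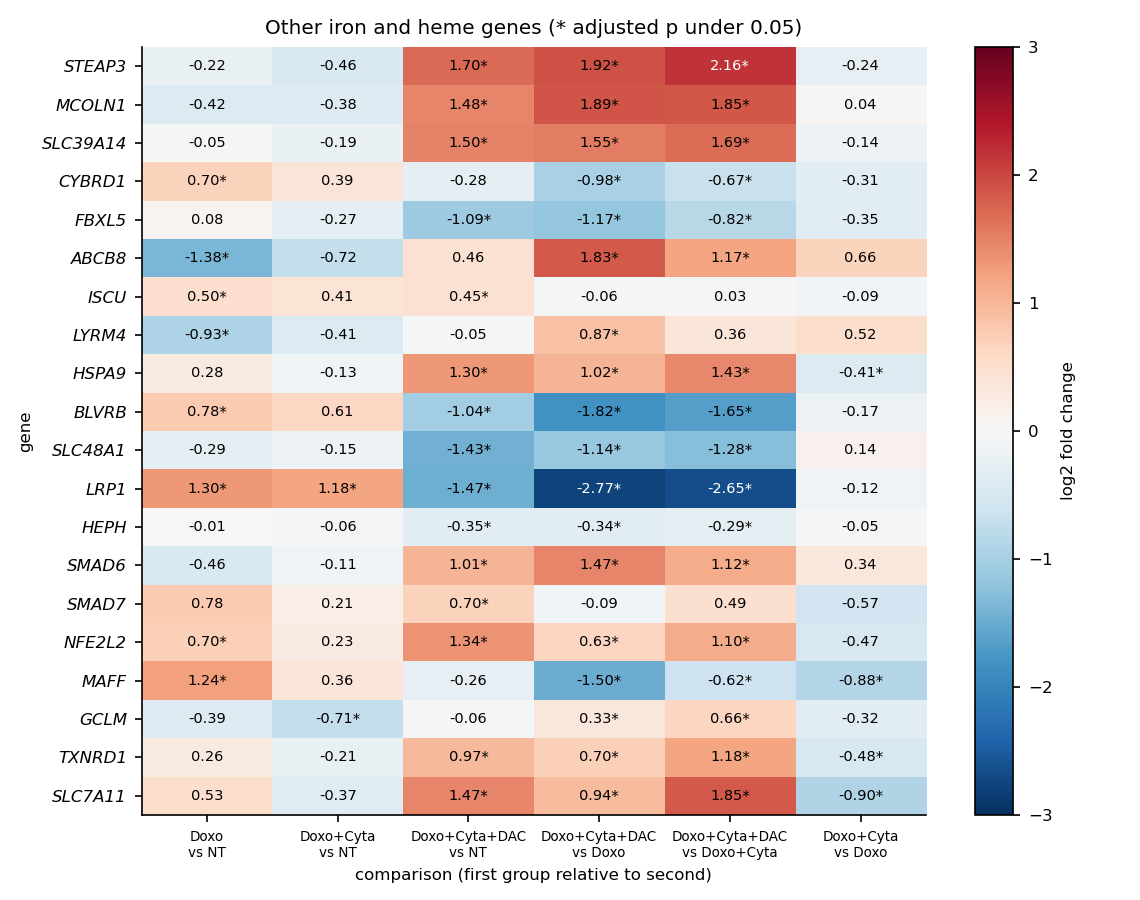
Log2 fold changes (colour and number, first group relative to second) of 20 named genes of iron and heme handling in the 6 comparisons, with an asterisk where the adjusted p was under 0.05. STEAP3, MCOLN1 and SLC39A14 are higher and FBXL5, BLVRB, SLC48A1, LRP1 and HEPH lower in all 3 comparisons of the triple treatment.

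Erythroid markers moved in both directions in the comparisons of the triple treatment. Of 14 tested erythroid and megakaryocytic markers, 4 were lower and 2 higher in the triple treatment relative to NT (28.6% and 14.3%, against 23.7% and 24.9% of all genes). The share lower than in NT was thus near that of all genes. Relative to Doxo, 6 were lower and 1 higher (42.9% and 7.14%, against 30.4% and 29.1% of all genes). Relative to Doxo+Cyta, 8 were lower and 2 higher (57.1% and 14.3%, against 30.5% and 29.8% of all genes). GATA1, the erythroid transcription factor, was singled out after its values were seen. It stood at 294 and 266 CPM in NT, 286, 326 and 318 CPM in Doxo, 350, 421 and 330 CPM in Doxo+Cyta, and 175, 172, 194 and 187 CPM in Doxo+Cyta+DAC, a 1.54-fold fall from NT (edgeR adjusted p = 0.000505). The 2 markers higher than in NT were HBE1, an embryonic globin (7.92-fold, edgeR adjusted p = 1.43e-05), and CD36, a fatty acid receptor (1.33-fold, adjusted p = 0.0394). HBE1 was also higher than in NT in Doxo (7.38-fold, edgeR adjusted p = 0.000465) and Doxo+Cyta (3.50-fold, adjusted p = 0.0239). Its rise over NT was thus shared by all relapse groups. HBE1 was not called in the triple treatment relative to Doxo (log2 fold change 0.10, edgeR adjusted p = 0.744). It was, however, 2.26-fold higher in the triple treatment than in Doxo+Cyta (edgeR adjusted p = 0.00134), and 2.11-fold lower in Doxo+Cyta than in Doxo (adjusted p = 0.0450). The largest part of the summed level of the marker list was HBG2, which averaged 4626 CPM in NT and 3906 CPM in the triple treatment. The sum was 8964 to 10244 CPM in NT and 8091 to 11301 CPM in the triple treatment, so these ranges overlapped. In Doxo it was 11221 to 12114 CPM and in Doxo+Cyta 11327 to 12128 CPM. A sum can hide opposite changes, such as those of GP9 (137 CPM in NT, 31.5 CPM in the triple treatment) and HBE1 (164 and 1299 CPM). The part of the marker list in the levels of the iron genes was not tested. Of the 10 macrophage markers 8 stayed below 1 CPM in every library, and the summed level, which comes mainly from LYZ, was 29.5 to 31.1 CPM in NT, 36.7 to 48.1 CPM in Doxo, 38.7 to 45.5 CPM in Doxo+Cyta and 28.1 to 30.3 CPM in Doxo+Cyta+DAC. CSF1R, the macrophage growth factor receptor, averaged 1.85 CPM in NT, 2.83 CPM in Doxo, 3.6 CPM in Doxo+Cyta and 0.619 CPM in Doxo+Cyta+DAC, and was called lower in the triple treatment than in each other group (edgeR adjusted p = 0.0316, 0.00176 and 0.000459). CD163, MARCO, C1QB and C1QC had no count. The part of these markers in the levels of FTL and HMOX1 was not tested. Lymphocyte markers summed to 28.2 to 62.9 CPM, mainly CD2, with MS4A1 at 0, and fibroblast markers to at most 1.65 CPM, with LUM at 0.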

How the data were processed

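RNA of 12 samples of barcoded HEL cells was sequenced as 100 bp paired-end TruSeq libraries on a HiSeq2000. Samples were grouped from their labels alone. The series text speaks of 3 untreated replicates, and the 2 labelled samples were used. Per the file headers and the study's methods, the authors aligned reads to GRCh38 with Bowtie2 2.2.8, an aligner without spliced alignment, and counted fragments per gene with featureCounts 1.6.0 without strand, leaving out chimeric fragments and those with several hits or genes. The deposited values are these raw counts. DESeq2, which the authors used for testing, is an alternative here. Ferritin has many processed pseudogenes, so fragments that also align there were dropped and FTH1 and FTL may be undercounted. Whether this loss is alike in all groups was not tested.

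Of 26485 rows, 4 with a missing count were left out. Genes were filtered with filterByExpr of edgeR 4.0.16 (R 4.3.3), scaled by TMM, and fitted by group over all 12 samples (glmQLFit, glmQLFTest, two-sided). P-values were adjusted over 14164 genes by the Benjamini-Hochberg method, with calls at 0.05. The SE is the log2 fold change divided by the root of F. Log2 CPM used a prior count of 2. Counting error is small at these depths (148 counts or more for each of the 8 genes), and the labels do not name a batch. Simulated counts served as a test of the fit.

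All 8 genes were named whatever their values. Of the other iron genes, the 3 with the largest called change per direction in each comparison with Doxo+Cyta+DAC (at least 1 CPM) were named, and every called gene where a list had 3 or fewer. The genes and lists were chosen with earlier results of these data known. Alternatives were the Wald test of DESeq2 1.42.0, RLE and upper-quartile scaling, no filter or at least 10 counts in every sample, only the groups compared, dropping the 100 genes of highest count (other than the 8), adding pseudogene counts, and leaving out each library. Leaving out both Doxo replicate 4 and Doxo+Cyta replicate 20, and the alternatives for ratios, were added after the data were seen. Hairpins were searched in GENCODE 44 transcripts with Python 3.11.15.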

Additional observations from a re-analysis of the deposited data

How the results depend on the processing

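No paired analysis was possible because the groups share no replicate numbers. Each of the 48 gene and comparison pairs was recomputed under 21 alternatives, which gave 1008 values: 968 kept their side of the threshold, 23 gained and 17 lost a call, and no called value changed sign. A sign changed in 28 values of 10 uncalled results, none larger than 0.11.

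Across the comparisons with Doxo+Cyta+DAC, the number of the 8 genes called stayed within 1.5 times its value in every alternative, and so did the number of other iron genes called. The counts in the remaining comparisons moved. In Doxo relative to NT, the 2 called among the 8 became 4 with only the groups compared and 1 to 4 without single libraries, and the 9 other iron genes became 14 with DESeq2 and 0 to 19 without single libraries. In Doxo+Cyta relative to NT, the 1 became 2 with DESeq2, 0 with only the groups compared and 0 to 2 without single libraries, and the 3 other iron genes became 6, 0 and 0 to 5. In Doxo+Cyta relative to Doxo, the 1 became 0 with only the groups compared and 0 to 1 without single libraries, and the 4 other iron genes became 1 and 0 to 6. Without both Doxo replicate 4 and Doxo+Cyta replicate 20, chosen after seeing the data, the counts among the 8 were 5, 3 and 2 in these 3 comparisons, and among the other iron genes 31, 14 and 8. The causes were not tested. Fits without an NT library take its spread from the other groups. NT had 2 libraries, and a difference from NT that missed the threshold is not shown to be absent.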
